A study of Homo sapiens with 15 samples.

Results

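The genes described here encode 9 enzymes that make pyrimidine nucleotides and the deoxynucleotides used for DNA synthesis. They are CAD, DHODH, UMPS, CTPS1, TYMS, RRM1, RRM2, TK1 and DTYMK, taken by gene symbol out of the 18322 genes in the expression table. All 9 had a row and all 9 passed the filter on low values. No rule on measured values chose them, but the choice was made with earlier results of these data known. They are followed across A375, a human melanoma cell line, in 5 groups of 3 libraries.

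Cells build pyrimidines on a ring made by CAD, DHODH and UMPS, which ends in uridine monophosphate, and CTPS1 then turns uridine triphosphate into cytidine triphosphate. Ribonucleotide reductase, formed by the large subunit RRM1 and the small subunit RRM2, converts ribonucleotides into deoxynucleotides, and TYMS makes thymidylate from deoxyuridylate. TK1 recovers thymidine from outside the synthesis route, and DTYMK carries thymidylate from either route one step further towards the triphosphate. Many of these genes are known for expression that follows the cell cycle, and CAD is a classical target of the transcription factor MYC.

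The 5 groups were Parental (A375), Resistant (a clonal A375 population resistant to PLX4720, an inhibitor of mutant BRAF), Resistant-shMYC1 and Resistant-shMYC2 (resistant cells with either of a pair of hairpins named for MYC), and Parental-MYC T58A (parental cells with MYC carrying the T58A change, at a residue whose phosphorylation marks MYC for degradation). The design text calls the triplicates biological, and the resistant cells stand for 1 clonal population. The sources used here do not give whether PLX4720 was present at harvest, or which promoter drives MYC T58A. All values are normalized reads, meaning that each library's read counts were divided by its own size factor.

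The libraries held 24222192 to 30399644 reads in genes. Between 296 and 665 genes had no read in 12 of the libraries, and between 1636 and 1694 in the 3 libraries labelled shMYC2. MYC itself averaged 423 ± 11.9 normalized reads (SD, n = 3) in Parental and 302 ± 28.1 in Resistant. Its level was 486 ± 29.5 with the shMYC1 label, 7817 ± 260 with the shMYC2 label and 3511 ± 94.4 with MYC T58A. MYC was higher, not lower, in both groups labelled with a MYC hairpin than in Resistant, so those groups are called by their labels throughout. Reads from an introduced MYC and from the cells' own gene were counted together. Of 10 melanocyte lineage markers 8 had a row (MLANA and TYR had none), and SOX10 averaged 5282 in Parental and 11890 in the shMYC1-labelled libraries, against 7.5, 19.5 and 9.14 in Resistant, the shMYC2-labelled libraries and MYC T58A. The 8 markers summed to 7282 to 7596 in Parental, 3807 to 4215 in Resistant and 3822 to 4245 in MYC T58A. Their sum was 13625 to 16047 in the shMYC1-labelled and 643 to 725 in the shMYC2-labelled libraries. In Resistant and MYC T58A nearly all of it came from markers other than SOX10, so SOX10 does not stand for the list. Fibroblast markers, 7 of 7 with a row, summed to 3959 to 4169 in Resistant and to 404 to 578 in the other 12 libraries. Of the 7, 5 averaged at least 10 in Resistant, as in Parental and MYC T58A, with 4 and 3 in the shMYC1- and shMYC2-labelled libraries. In bulk RNA, fewer cells of a type and less RNA per cell cannot be told apart, and the part of any cell mixture in the results was not tested.

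Before the values, the promoters of 4 members are shown: those of DHODH, RRM2 and TYMS, which had the widest spread between groups, and that of TK1, picked after the search because it shares a repeated CCAAT word with RRM2. Each line gives the 200 bases before the start in the RefSeq promoter table (GRCh38.p14), read 5′ to 3′ on the gene's strand. Capitals mark CACGTG (a word that MYC and MAX can bind), CCAAT or its reverse ATTGG (bound by NF-Y), and TTTCCCGC or its reverse (an E2F word). The stretches are chr16:72008544-72008743 (plus strand) for DHODH, chr18:657453-657652 (plus strand) for TYMS, chr2:10122539-10122738 (plus strand) for RRM2 and chr17:78187053-78187252 (minus strand, the second of 2 entries) for TK1.
DHODH: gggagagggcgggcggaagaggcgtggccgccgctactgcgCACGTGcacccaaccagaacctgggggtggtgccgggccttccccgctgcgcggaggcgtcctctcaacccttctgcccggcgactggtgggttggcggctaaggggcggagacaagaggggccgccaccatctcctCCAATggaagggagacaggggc
TYMS: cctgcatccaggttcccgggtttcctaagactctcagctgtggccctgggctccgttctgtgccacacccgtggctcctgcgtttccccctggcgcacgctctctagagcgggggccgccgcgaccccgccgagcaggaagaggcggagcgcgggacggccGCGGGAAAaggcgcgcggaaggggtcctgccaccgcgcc
RRM2: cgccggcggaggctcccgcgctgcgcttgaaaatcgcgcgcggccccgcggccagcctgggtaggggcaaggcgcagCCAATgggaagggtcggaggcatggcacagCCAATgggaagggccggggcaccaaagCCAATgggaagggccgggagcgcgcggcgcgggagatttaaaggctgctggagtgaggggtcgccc
TK1: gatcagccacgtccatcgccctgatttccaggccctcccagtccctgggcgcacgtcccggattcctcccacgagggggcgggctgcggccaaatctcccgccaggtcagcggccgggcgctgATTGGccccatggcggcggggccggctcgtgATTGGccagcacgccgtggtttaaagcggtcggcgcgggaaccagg

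RRM2 carried 3 CCAAT words in 1 direction, beginning 123, 93 and 66 bases before its start, and TK1 carried 2 in reverse, beginning 77 and 46 bases before its start. The other entry of RRM2 held 1 CCAAT word and the other entry of TK1 held 0. DTYMK held 2, CAD, DHODH and RRM1 held 1 each, and UMPS, TYMS and both entries of CTPS1 held 0. Over the 15 libraries RRM2 correlated with CTPS1 at r = 0.89, with TK1 at 0.84 and with DTYMK at 0.10. Of 35116 promoter entries searched over 250 bases before the start on both strands, 9.53% held at least 2 CCAAT words and 2.93% at least 3. Within the 250 bases searched, the single CACGTG among the members lay in DHODH, 159 to 154 bases before the start, and 6.34% of all entries held at least 1. Bases after the start were not searched, so a word there would be missed in CAD or any other member. The reverse of TTTCCCGC in TYMS lay 39 to 32 bases before the start, and any of the 4 E2F words searched (TTTCCCGC, TTTGGCGC, TTTCGCGC, TTTGCCGC) stood in 2.79% of entries. The 9 members have 12 entries in this table, and the search gives matches of letters, not bound sites.

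CAD, which carries the first 3 activities of the route in 1 protein, stood at 6612, 6319 and 6632 normalized reads in the Parental libraries and at 5056, 5599 and 5580 in Resistant. It stood at 6548, 6312 and 6299 in the shMYC1-labelled libraries, at 4738, 4641 and 4599 in the shMYC2-labelled libraries and at 6691, 7178 and 6881 in MYC T58A. The 3 shMYC2-labelled libraries were thus the lowest of all 15, Resistant came next without overlap, and Parental overlapped the shMYC1-labelled libraries. The order of group means ran from MYC T58A (6917) through Parental and the shMYC1-labelled libraries to Resistant and the shMYC2-labelled libraries (4660). Neither step among the first 3 groups passed the test, and both lower steps did.

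DHODH, the mitochondrial enzyme that closes the oxidation step of the ring, had the widest range of the 9 genes, 2.61-fold between group means. Its libraries held 689, 655 and 751 normalized reads in Parental, 579, 553 and 524 in Resistant, and 775, 822 and 748 in the shMYC1-labelled group. They held 428, 388 and 394 in the shMYC2-labelled group and 1081, 1040 and 1037 in MYC T58A. MYC T58A lay above, and the shMYC2-labelled libraries below, every library of the other groups, and these 2 groups hold the most MYC transcript. Of the steps in its order, that between the shMYC1-labelled libraries (782 ± 37.3) and Parental (699 ± 48.6) did not pass (limma, adjusted p = 0.0538), and its libraries overlapped. The same step passed with edgeR (adjusted p = 0.044), with a filter at 50 (0.047), without Parental library 3 (0.024) and without shMYC1-labelled library 3 (0.047).

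UMPS, which makes uridine monophosphate, was at 2299, 2348 and 2393 normalized reads in Parental and at 2792, 2781 and 2568 in Resistant. It was at 2418, 2715 and 2656 in the shMYC1-labelled libraries, at 2323, 2338 and 2282 in the shMYC2-labelled libraries and at 3272, 3216 and 3103 in MYC T58A. MYC T58A stood above all other libraries, while Parental and the shMYC2-labelled libraries overlapped at the bottom. The range between group means was 1.38-fold.

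CTPS1, the cytidine triphosphate synthase, held 6784, 6707 and 6728 normalized reads in Parental and 6667, 6358 and 6186 in Resistant. It held 7603, 7531 and 8189 in the shMYC1-labelled libraries, 8350, 8269 and 8503 in the shMYC2-labelled libraries and 5696, 5558 and 5372 in MYC T58A. No 2 groups overlapped for CTPS1, and its order placed MYC T58A lowest, the reverse of UMPS. The step from Parental to Resistant did not pass the test (adjusted p = 0.16).

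RRM2, the small subunit of ribonucleotide reductase, had the second widest range, 2.04-fold. Its libraries held 15688, 15967 and 15775 normalized reads in Parental, 11036, 10788 and 10383 in Resistant, and 19867, 22768 and 20757 in the shMYC1-labelled group. They held 21590, 21931 and 22158 in the shMYC2-labelled group and 12197, 11877 and 10743 in MYC T58A. Resistant and MYC T58A overlapped at the bottom (adjusted p = 0.069, but 0.041 with quantile normalization, 0.021 with a common total and 0.023 with edgeR), the 2 hairpin-labelled groups overlapped at the top, and Parental lay between them without overlap. RRM1, the large subunit, did not share this order: it stood at 7320, 7235 and 7353 in Parental and at 8084, 7806 and 7266 in Resistant. RRM1 held 7151, 7898 and 7646 in the shMYC1-labelled libraries, 9227, 9384 and 9631 in the shMYC2-labelled libraries, and 6980, 6944 and 6384 in MYC T58A. The shMYC2-labelled libraries were above all others for RRM1, and none of the other 3 steps in its order passed the test.

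TYMS, thymidylate synthase, held 5259, 5473 and 5443 normalized reads in Parental and 4880, 4926 and 4855 in Resistant. It held 7591, 8674 and 8048 in the shMYC1-labelled libraries, 7488, 7473 and 7579 in the shMYC2-labelled libraries and 7833, 7899 and 7493 in MYC T58A. TYMS was thus high in the 9 libraries of MYC T58A and both hairpin-labelled groups, with those of MYC T58A overlapping both hairpin-labelled groups. Parental and Resistant were lower. They did not overlap each other, and the step between them passed (limma, adjusted p = 0.014). TYMS overlaps ENOSF1 on the opposite strand, and the sources used here do not say whether the counting used strand. ENOSF1 averaged 471 in Parental, 825 in Resistant, 415 and 700.0 in the shMYC1- and shMYC2-labelled libraries and 1715 in MYC T58A, an order unlike that of TYMS.

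TK1, thymidine kinase of the cytosol, held 3105, 3015 and 3140 normalized reads in Parental and 2902, 2855 and 2992 in Resistant. It held 4001, 4531 and 3890 in the shMYC1-labelled libraries, 4290, 4519 and 4365 in the shMYC2-labelled libraries and 3382, 3355 and 3463 in MYC T58A. The hairpin-labelled libraries overlapped each other at the top, and MYC T58A lay above Parental without overlap. DTYMK, thymidylate kinase, stood at 1761, 1767 and 1804 in Parental, at 1296, 1505 and 1617 in Resistant and at 1890, 2225 and 1893 in the shMYC1-labelled libraries. DTYMK stood at 1322, 1438 and 1301 in the shMYC2-labelled libraries and at 1688, 1630 and 1851 in MYC T58A. Its spread within a group was the widest of the 9 genes, with a coefficient of variation of up to 11.1%, and 1 of its 4 steps passed, that from MYC T58A to Resistant (0.23). It lost its call without Resistant library 1 (adjusted p = 0.11) and without MYC T58A library 3 (0.079).

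**Figure D1:**
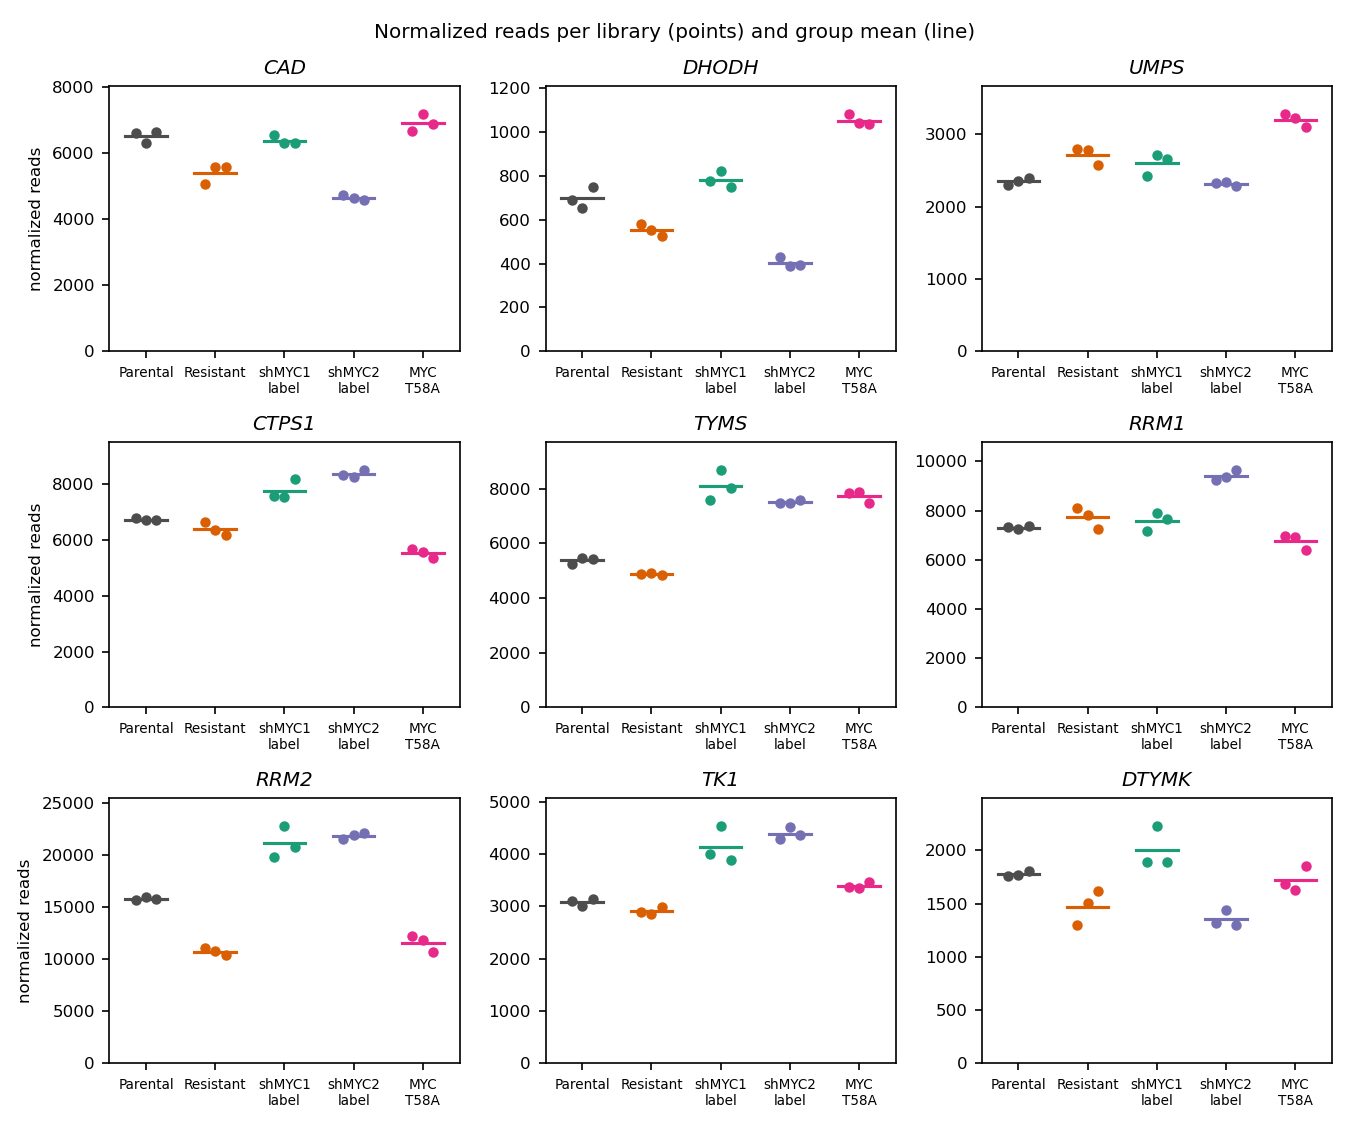
Normalized reads of the 9 genes (vertical axes from 0) in each library of the 5 groups (horizontal axes); points are libraries and lines are group means. DHODH is highest in MYC T58A (mean 1053) and lowest in the shMYC2-labelled libraries (403), while RRM2 is highest in both hairpin-labelled groups.

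Over the 9 genes, 18 of the 36 steps between neighbouring group means passed the test at an adjusted p under 0.05 and 18 did not. These steps draw on pairs of groups in which many genes differed: 79.5% of all tested genes were called between the shMYC2-labelled libraries and Parental, 67.8% between MYC T58A and Resistant, and 79.3% and 64.9% between MYC T58A and the shMYC2- and shMYC1-labelled libraries. Divided by exon length, so that genes can be compared, RRM2 and TYMS were the most abundant, at 2782 to 5673 and 2940 to 4876 reads per kilobase of exon across group means. RRM1 stood at 2015 to 2803 and TK1 at 1689 to 2543, with TK1 above RRM1 in the shMYC1-labelled group, and DHODH was lowest in every group, at 83.5 to 218 reads per kilobase. Within ribonucleotide reductase, RRM2 exceeded RRM1 per kilobase in each of the 5 groups.

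The first comparison asked what differed in the drug-resistant population. Against Parental, RRM2 fell 1.47-fold and DHODH 1.27-fold, CAD and DTYMK each fell 1.21-fold, TYMS fell 1.10-fold, and UMPS rose 1.16-fold. By limma with Benjamini-Hochberg adjustment over 17012 genes, 6 of 9 were called, 1 higher and 5 lower, where 51.6% of all tested genes were called (27.2% higher and 24.4% lower). The libraries of both groups did not overlap for 8 of the 9, as for 63.5% of all tested genes. The median log2 difference over the 9 was -0.14, against 0.0090 over all tested genes. The largest was RRM2 at -0.56 (95% interval -0.67 to -0.45, adjusted p = 6.5e-08), followed by DHODH at -0.34 (-0.47 to -0.20, adjusted p = 0.00026). CTPS1, RRM1 and TK1 were not called, with intervals of -0.17 to 0.02, -0.03 to 0.18 and -0.19 to 0.03. TYMS was called at -0.14 (adjusted p = 0.014) and lost the call without Parental library 2 (adjusted p = 0.053).

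In these cells neighbouring genes on a chromosome can differ together, so each difference was set beside the median of up to 50 tested genes around it (25 on each side in GENCODE v29 order, 28 for TYMS and 27 for DTYMK in all). Around RRM2 the neighbours had a median of -0.61, close to its own -0.56, and around CAD the median was -0.42 against its -0.27. Around UMPS the neighbours stood at 0.19 beside its 0.21. Less those medians, the differences of RRM2 (0.05) and CAD (0.15) turned to the other sign. DHODH, TYMS and DTYMK stood apart from their neighbours, whose medians were -0.07, 0.07 and 0.02. Their part in the differences was not tested.

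The second comparison asked what differed between the MYC T58A cells and Parental. SOX10 also differed between these groups (9.14 against 5282 on average), and the part of the introduced MYC in the differences was not tested. DHODH rose 1.51-fold, TYMS 1.44-fold, UMPS 1.36-fold and TK1 1.10-fold against Parental, and RRM2 fell 1.36-fold and CTPS1 1.22-fold. That made 4 members higher and 2 lower, where 63.8% of all tested genes were called (30.1% higher and 33.7% lower). The log2 differences were 0.59 for DHODH (0.46 to 0.73, adjusted p = 2.9e-07), 0.52 for TYMS (0.43 to 0.62, adjusted p = 1.5e-08) and -0.45 for RRM2 (-0.56 to -0.34, adjusted p = 6.5e-07), by limma. CAD, the classical MYC target, differed by 0.08 (-0.01 to 0.18, adjusted p = 0.11) and was not called, although its libraries did not overlap those of Parental (8 of 9 members and 72.7% of tested genes did not overlap). CAD (adjusted p = 0.048) and RRM1 (-0.11, adjusted p = 0.015, and 0.061 in the fit of all groups) were called when only the groups compared were fitted, and CAD also with scaling to a common total (0.12, adjusted p = 0.028). TK1 was called at 0.14 (adjusted p = 0.023) and lost its call with quantile normalization (0.071), without Parental library 2 (0.083) and without MYC T58A library 3 (0.067).

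Neighbouring genes stood close to several of these. TYMS lies on chromosome 18, where the median of all tested genes was 0.53 and that of its neighbours 0.46, next to its own 0.52. CTPS1 lies on chromosome 1, where the median was -0.46 and that of its neighbours -0.42, larger than its own -0.28, so that less its neighbours it stood at 0.14. CAD (0.08) and RRM1 (-0.11), neither called, had neighbours at 0.09 and -0.17. DHODH, UMPS and RRM2 stood further from their neighbours, whose medians were 0.11, 0.15 and 0.07.

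The other comparisons with Resistant asked what differed in the hairpin-labelled lines. In the libraries labelled shMYC1, 7 members were higher than in Resistant and 0 lower, where 57.1% of all tested genes were called (27.0% higher and 30.1% lower). RRM2 rose 1.97-fold, TYMS 1.66-fold, TK1 and DHODH 1.42-fold, DTYMK 1.36-fold, CTPS1 1.21-fold and CAD 1.18-fold. The log2 difference of RRM2 was 0.97 (0.87 to 1.08, adjusted p = 2.5e-11) and that of TYMS 0.73 (0.63 to 0.82, adjusted p = 2.0e-10), by limma. UMPS, at -0.06, and RRM1, at -0.03, were not called, though scaling to a common total called UMPS (-0.13, adjusted p = 0.023) and quantile normalization called RRM1 (-0.14, adjusted p = 0.016). The libraries did not overlap for 7 members, as for 60.1% of tested genes. RRM2's neighbours had a median of 0.52 and CAD's 0.37, whereas the medians around TYMS, TK1, DHODH and DTYMK lay between -0.03 and 0.07. The median over the 9 members was 0.45, against -0.03 over all tested genes.

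In the libraries labelled shMYC2, 5 members were higher than in Resistant and 3 lower, where 79.2% of all tested genes were called (36.2% higher and 43.0% lower). With quantile normalization that split of calls turned, to 7863 genes higher and 6167 lower against 6155 and 7319. The libraries did not overlap for 8 of the 9, as for 81.3% of tested genes. RRM2 rose 2.04-fold, TYMS 1.54-fold, TK1 1.51-fold, CTPS1 1.31-fold and RRM1 1.22-fold. DHODH fell 1.37-fold, UMPS 1.17-fold and CAD 1.16-fold. RRM2 differed by 1.03 on the log2 scale (0.92 to 1.14, adjusted p = 2.3e-12, neighbours 0.42), TYMS by 0.62 (0.53 to 0.72, adjusted p = 4.5e-10, neighbours 0.06) and DHODH by -0.45 (-0.59 to -0.32, adjusted p = 4.1e-06, neighbours -0.29), by limma. DTYMK, at -0.12, was not called, and it was called lower with quantile normalization (-0.21, adjusted p = 0.025), with a common total (-0.26, adjusted p = 0.0084) and without Resistant library 1 (-0.21, adjusted p = 0.019). CTPS1 (0.39, neighbours 0.33) and UMPS (-0.23, neighbours -0.28) lay close to the genes around them.

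**Figure D2:**
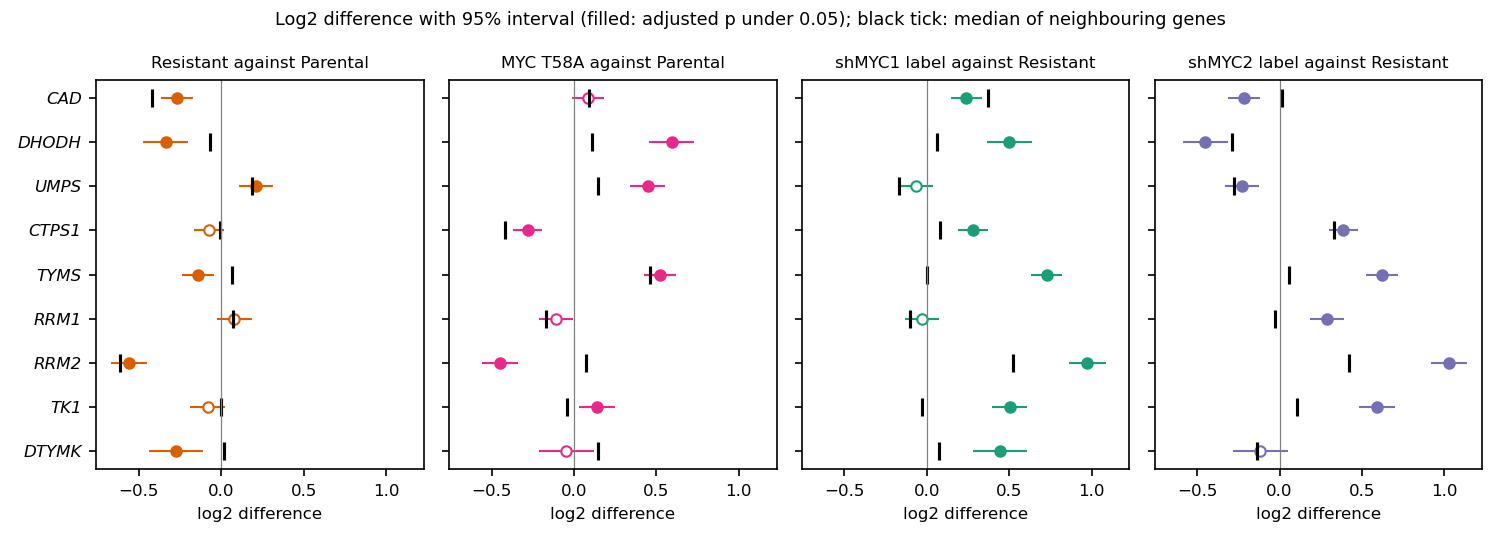
Log2 difference (horizontal axes) of each gene (vertical axis) in 4 comparisons, with 95% intervals; filled points are called at an adjusted p under 0.05 and black ticks are the median of neighbouring genes. TYMS in MYC T58A and RRM2 in Resistant lie near their ticks, at 0.52 beside 0.46 and -0.56 beside -0.61.

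Both of those comparisons use the same 3 Resistant libraries, and both of the first use the same 3 Parental libraries, so the members are given side by side without a correlation. The 2 hairpin-labelled groups differed directly in 7 members, CTPS1 and RRM1 being higher and CAD, DHODH, UMPS, TYMS and DTYMK lower in the shMYC2-labelled libraries, where 78.6% of tested genes were called (35.7% higher and 42.9% lower). Leaving out 1 library at a time gave 5 to 7 called members. CTPS1 (0.11, adjusted p = 0.029) lost its call with quantile normalization (0.33), a common total (0.45), only these groups in the fit (0.083) and without shMYC1-labelled library 1 (0.081) or 2 (0.074) or shMYC2-labelled library 1 (0.059) or 3 (0.088). TYMS (-0.11, adjusted p = 0.039) lost it with only these groups in the fit (0.12) and without shMYC1-labelled library 2 (0.18) or 3 (0.061) or any 1 of the 3 shMYC2-labelled libraries (0.061 to 0.086). DHODH differed most between them, at -0.95 on the log2 scale. RRM2, at 0.05 (-0.06 to 0.16), and TK1, at 0.09 (-0.02 to 0.19), were not called, but both were called higher without shMYC1-labelled library 2 (0.11 and 0.15), and RRM2 stood at -0.06 with quantile normalization. Against Parental, the shMYC1-labelled libraries were higher in 5 members (TYMS, TK1, RRM2, CTPS1 and UMPS) and lower in 0, where 39.6% of tested genes were called (19.7% higher and 19.9% lower). UMPS (0.14, adjusted p = 0.027) lost its call with quantile normalization (0.12), a common total (0.18), only these groups in the fit (0.073), and without Parental library 1 (0.095) or 2 (0.066) or shMYC1-labelled library 2 (0.084) or 3 (0.089). Scaling to a common total changed that split over all genes from 3350 higher and 3380 lower to 2612 higher and 4352 lower.

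The libraries labelled shMYC2 and those with MYC T58A held the most MYC transcript, and their responses, which share no library, could be tested against each other. The difference of the responses (shMYC2-labelled minus Resistant, less MYC T58A minus Parental) was called for 7 of 9 members, where 75.0% of all tested genes were called (35.0% higher and 40.0% lower). It was 1.48 for RRM2 (95% interval 1.32 to 1.63), 0.67 for CTPS1, 0.45 for TK1 and 0.40 for RRM1, each higher in the shMYC2-labelled response. It was -1.04 for DHODH (-1.24 to -0.85), -0.67 for UMPS and -0.30 for CAD. These are the 3 enzymes of the route to uridine monophosphate, which did not move together in every comparison. In Resistant against Parental, CAD (-0.27) and DHODH (-0.34) were lower and UMPS (0.21) was higher. For the difference of the responses, TYMS (0.10, -0.04 to 0.23) and DTYMK (-0.07, -0.30 to 0.16) were not called, and TYMS rose in both responses. Around CTPS1 the neighbours had a difference of 0.62, and around RRM2 and DHODH 0.55 and -0.14.

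**Figure D3:**
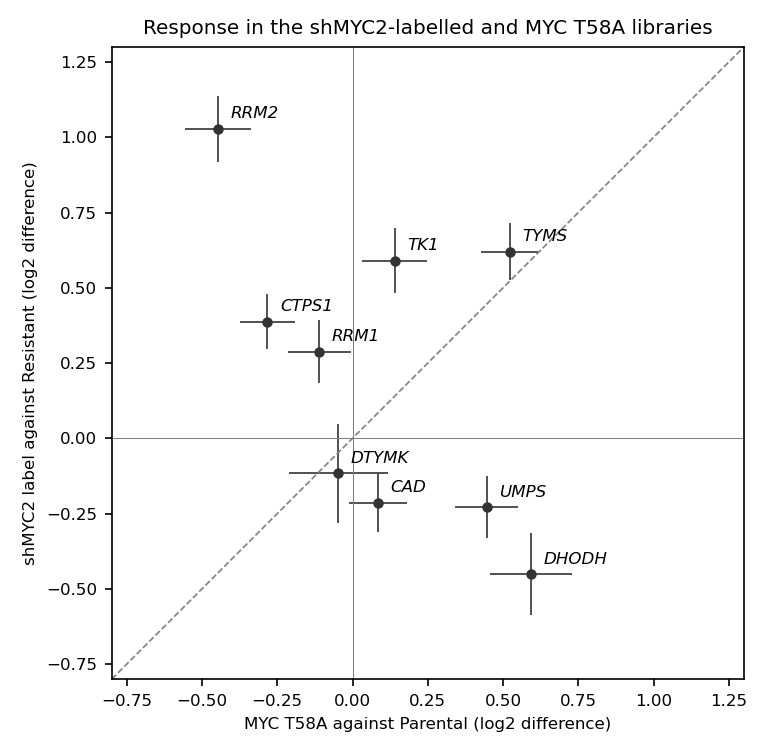
Log2 difference in the shMYC2-labelled libraries against Resistant (vertical axis) and in MYC T58A against Parental (horizontal axis) for each of the 9 genes, with 95% intervals and the line of equality (dashed). RRM2 lies at -0.45 and 1.03, DHODH at 0.59 and -0.45, and TYMS on the upper right at 0.52 and 0.62.

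Over the 15 libraries, the 36 pairs of members had Pearson correlations of log2 values from -0.91 to 0.93 with a median of 0.16. CAD and DHODH were the most alike (0.93), and CAD and RRM1 the most opposed (-0.91). RRM2 correlated with CTPS1 (0.89) and TK1 (0.84), and TK1 with TYMS (0.83), whereas RRM2 and UMPS stood at -0.63. With MYC transcript the members ran from -0.42 (DTYMK) to 0.63 (TYMS), and CAD stood at -0.34. These are descriptions over 5 groups of 3 libraries that share the cell line, and libraries of 1 group are not independent points.

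**Figure D4:**
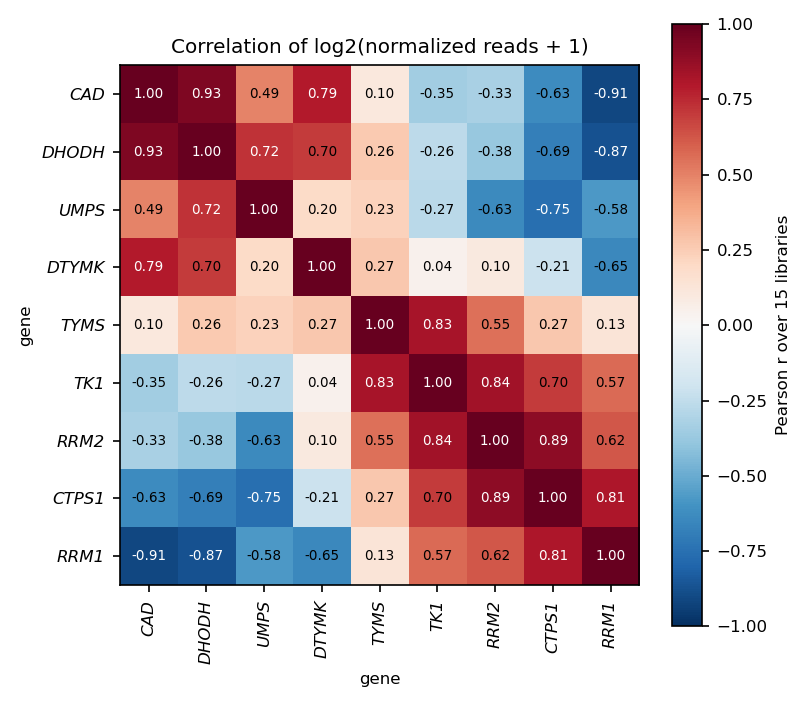
Pearson correlation of log2(normalized reads + 1) over 15 libraries for each pair of the 9 genes (both axes), on a colour scale from -1 to 1. CAD, DHODH, UMPS and DTYMK correlate positively among themselves, up to 0.93, and CAD and RRM1 lie at -0.91.

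Among all tested genes, the closest in profile over the 15 libraries to RRM2 were ANXA2 (r = 0.99), MAPRE1 (0.98) and RPRD1B (0.98). DHODH was closest to BRIX1, CHKA and DDX56 (each 0.98), and TYMS to UBE2N (0.99), ITPK1 (0.98) and RP11-395G23.3 (0.97). CAD was closest to TBC1D8, CROCC and IGFBP2, UMPS to GJA1, WWC2 and AP1M2, and CTPS1 to DPYD, RACGAP1 and S1PR1. RRM1 was closest to SWI5, ACVR1 and CCDC147, TK1 to HNRNPK, BTG1 and KDELR3, and DTYMK to MRPS26, ATRAID and NDUFB11. The r of these 27 genes ran from 0.946 to 0.990 over the 15 libraries. GJA1 and CCDC147 were low genes, averaging 7.84 and 23.1 normalized reads over all libraries.

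Several members have a paralog with a related activity, and their ratios, chosen after the values were seen, differed between groups. RRM2 to RRM2B, the p53-inducible small subunit, stood at 6.89 ± 0.063 (SD, n = 3) in Parental, 3.19 ± 0.15 in Resistant and 3.27 ± 0.15 in MYC T58A. The same ratio stood at 7.97 ± 0.54 in the shMYC1-labelled and 11.6 ± 0.29 in the shMYC2-labelled libraries. RRM2B moved opposite to RRM2 in all 4 comparisons, by 0.55 in Resistant and 0.63 in MYC T58A against Parental, and by -0.34 and -0.83 in the shMYC1- and shMYC2-labelled libraries against Resistant on the log2 scale, each called. These comparisons share libraries, and the 2 genes were not opposite in every pair of groups. Mean RRM2B was 2655 in the shMYC1-labelled libraries and 2294 in Parental, and RRM2 was also higher there (21131 against 15810). In the shMYC2-labelled libraries RRM2B (1888) was below Parental and RRM2 (21893) above it. CTPS1 to CTPS2 stood at 8.09 in Parental, 6.40 in Resistant, 11.5 in the shMYC1-labelled libraries, 46.8 in the shMYC2-labelled libraries and 6.18 in MYC T58A. CTPS2 itself fell by 2.47 in the shMYC2-labelled libraries against Resistant, and its neighbours on the X chromosome had a median of -1.15. TK1 to TK2, the mitochondrial kinase, ran from 4.32 in Resistant to 11.3 in the shMYC2-labelled libraries. The 3 ratios compare reads not divided by length, so only their differences between groups can be read.

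The rest of the pathway was followed through lists of 12 salvage enzymes and nucleotide kinases, 10 genes of deoxynucleoside salvage and pool control, 8 of breakdown and 6 carriers. Medians below are log2 differences in Resistant and MYC T58A against Parental and in the shMYC1- and shMYC2-labelled libraries against Resistant, in that order, and over all tested genes they were 0.0090, -0.02, -0.03 and -0.08. In the same order, 51.6%, 63.8%, 57.1% and 79.2% of all tested genes were called, and the called share of a list is to be read against these. Of the pool control genes, 3 were higher and 3 lower in Resistant, 4 and 2 in MYC T58A, 4 and 2 in the shMYC1-labelled libraries and 3 and 5 in the shMYC2-labelled libraries, each against its own control, with medians of -0.03, 0.11, -0.09 and -0.12. NUDT1, which clears oxidized nucleotides, rose 1.82-fold in the shMYC2-labelled libraries.

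Among salvage enzymes, 4 were higher and 3 lower in Resistant, 2 and 7 in MYC T58A, 4 and 3 in the shMYC1-labelled libraries and 5 and 3 in the shMYC2-labelled libraries, with medians of 0.02, -0.22, 0.0058 and 0.12. UPP1, uridine phosphorylase, held 711 ± 39 normalized reads in Parental and 164 ± 9.33 in MYC T58A, a 4.34-fold fall, while it rose 1.64-fold in Resistant and a further 2.38-fold in the shMYC2-labelled libraries. UCKL1, a uridine-cytidine kinase-like gene, fell 1.77-fold in Resistant and rose 1.78-fold in the shMYC1-labelled libraries, with neighbours at -0.40 and 0.46. UCK2, uridine-cytidine kinase, rose 1.46-fold in MYC T58A, and its neighbours had a median of -0.51. CMPK2, a mitochondrial nucleotide kinase induced by interferon, had 91 reads over the Resistant libraries and 1 over the shMYC2-labelled ones, a ratio of 84.1 (95% Poisson interval 14.7 to 3359, counting error only). CMPK2 also fell 2.17-fold in Resistant and 6.84-fold in MYC T58A.

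Of the breakdown genes, 3 were higher and 2 lower in Resistant, 4 and 2 in MYC T58A, and 3 and 2 in each of the hairpin-labelled groups, with medians of -0.02, 0.39, 0.25 and 0.0043. CDA, cytidine deaminase, held 21.8, 31.7 and 26.1 normalized reads in Parental and 252, 221 and 241 in Resistant, a rise of 8.97-fold. It stood at 23.8, 35.3 and 25.8 in the shMYC1-labelled libraries, an 8.41-fold fall from Resistant. CDA fell 2.13-fold from Resistant in the shMYC2-labelled libraries, to 112 ± 6.7, and rose 1.73-fold over Parental in MYC T58A, to 46.0 ± 7.01. CDA's libraries in Parental and the shMYC1-labelled group overlapped. DPYD, which starts pyrimidine breakdown, fell 2.14-fold in MYC T58A against Parental and rose 2.38-fold and 3.63-fold in the shMYC1- and shMYC2-labelled libraries against Resistant. DPYD was also the gene closest to CTPS1 in profile. NT5E, a nucleotidase of the cell surface, fell 1.61-fold in Resistant and 2.39-fold in MYC T58A. TYMP, thymidine phosphorylase, had 4 reads over Parental, 14 over Resistant and 21 over MYC T58A, ratios of 3.27 (Poisson interval 1.03 to 13.7) and 4.92 (1.66 to 19.7).

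Of the carriers, 2 were higher and 1 lower in Resistant, 5 and 1 in MYC T58A, 2 and 2 in the shMYC1-labelled libraries, and 3 and 3 in the shMYC2-labelled libraries, with medians of 0.15, 0.38, -0.20 and 0.0066. The count in Resistant fell to 1 called without Parental library 2 or Resistant library 1. SLC29A2, an equilibrative nucleoside carrier, rose 3.57-fold in MYC T58A, from 133 ± 15.6 to 475 ± 26.8 normalized reads. It had 2 reads over the shMYC2-labelled libraries and 620 over Resistant, a ratio of 287 (Poisson interval 79.0 to 2372). SLC28A3, a concentrative carrier, rose from 4.5 ± 1.62 in Parental to 89.7 ± 9.9 in Resistant and had 7 reads over the shMYC1-labelled libraries, a ratio of 41.5 against Resistant (19.9 to 104). SLC28A3 had 2 reads over MYC T58A against 13 over Parental, and rose 2.10-fold in the shMYC2-labelled libraries. SLC29A1 rose 3.06-fold in the shMYC2-labelled libraries while SLC29A3 fell 7.86-fold, so that carriers moved in opposite directions there. SLC29A3 rose 2.07-fold in MYC T58A. SLC25A33, a mitochondrial pyrimidine nucleotide carrier, fell 1.21-fold in Resistant and rose 1.58-fold in the shMYC1-labelled libraries.

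**Figure D5:**
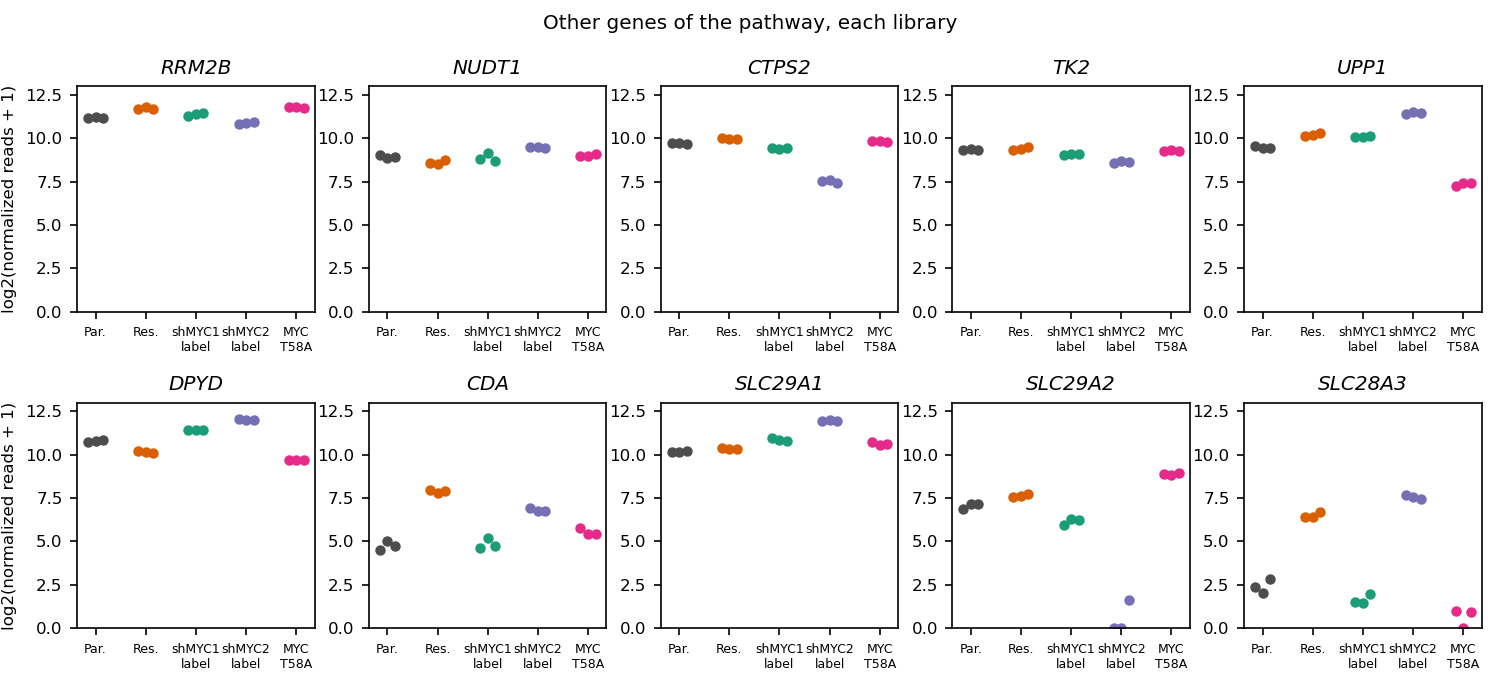
Log2(normalized reads + 1) (vertical axes) of 10 other pyrimidine and deoxynucleotide genes in each library of the 5 groups (horizontal axes; Par. is Parental, Res. is Resistant). SLC29A2 is at or near 0 in the shMYC2-labelled libraries, and UPP1 is lowest in MYC T58A.

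Because RRM2, TYMS and TK1 are genes of proliferating cells, cell cycle lists were set beside them. Of 41 S phase genes, 11 were higher and 10 lower in Resistant, 16 and 11 in MYC T58A, 17 and 7 in the shMYC1-labelled libraries and 17 and 15 in the shMYC2-labelled libraries, with medians of -0.01, 0.09, 0.09 and -0.03. Of 16 mitosis genes, 1 was higher and 9 lower in Resistant, 3 and 10 in MYC T58A, 10 and 2 in the shMYC1-labelled libraries and 4 and 9 in the shMYC2-labelled libraries, with medians of -0.15, -0.23, 0.27 and -0.22. Over all tested genes the shares called were 51.6%, 63.8%, 57.1% and 79.2% in that order, so that the 13 called of 16 mitosis genes in the shMYC2-labelled libraries are near the share of all genes, of which 43.0% were lower. Set against Parental instead, the shMYC1-labelled libraries had 1 mitosis gene higher and 0 lower, with a median of 0.0060. In that pair 16 S phase genes were higher and 0 lower (median 0.07), and 19.7% of all tested genes were higher and 19.9% lower. CCNB1, the mitotic cyclin B1, fell 2.01-fold in Resistant and rose 1.99-fold in the shMYC1-labelled libraries, with neighbours at -0.47 and 0.45. CENPF, a kinetochore gene, rose 1.19-fold and fell 1.34-fold there (log2 differences of 0.24 and -0.42), with neighbours at 0.51 and -0.39. CDC20, an activator of mitotic exit, fell 1.89-fold in MYC T58A (log2 difference -0.92, neighbours -0.45). CENPE, a mitotic motor, fell 1.86-fold in the shMYC2-labelled libraries (-0.89, neighbours -0.39). NDC80, another kinetochore gene, rose in both, 1.44-fold and 1.88-fold (0.52 and 0.92, neighbours 0.40 and 0.18). It lies on chromosome 18, whose median in MYC T58A was 0.53. CCNE1, cyclin E1, rose 1.44-fold in Resistant and fell 1.55-fold and 2.65-fold in the shMYC1- and shMYC2-labelled libraries, and MCM4, a replicative helicase subunit, rose 1.73-fold in MYC T58A. E2F1, a regulator of S phase genes, fell by 1.17 on the log2 scale in MYC T58A (neighbours -0.42), where TYMS rose (neighbours 0.46). E2F1 rose by 1.10 and 0.89 in the shMYC1- and shMYC2-labelled libraries, with neighbours at 0.31 and 0.51, and TYMS rose in both (0.73 and 0.62). Mean E2F1 was 845 in Resistant and 1170 in Parental, and TYMS was also lower in Resistant (-0.14). The part of cell cycle stage in the members' differences was not tested.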

How the data were processed

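RNA was measured in 15 libraries of A375 cells. Per the labels' protocols, a Kapa kit gave stranded libraries of mRNA, and per the submitters' processing notes Trim Galore, cutadapt, STAR, HTSeq and DESeq2 were used (no versions stated). The genome build, annotation and counting strand were not given in the sources used here. What the authors deposited are signal values, that is, counts of reads over 1 size factor per library. This was read from the values: 100% came out as whole reads within a tolerance of 0.01. Columns could be tied to a group but not to a replicate number, and libraries are numbered in column order within a group. Each gene in the table had at least 10 reads in its highest library.

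Values were transformed to log2(value + 1), which understates the change of low genes. Genes reaching 10 in 3 or more libraries (17012) were tested with limma 3.58.1 (trend, robust) in R 4.3.3, in 1 fit with 5 group means, with Benjamini-Hochberg adjustment over all tested genes and calls at an adjusted p under 0.05. The design had allowed for raw counts, for which edgeR was foreseen. edgeR 4.0.16 and DESeq2 1.42.0 were run on recovered reads as alternatives, beside another normalization, filter, pseudocount, threshold and leaving out each library. The scripts were tested on simulated data. Gene order and exon length came from GENCODE v29 (14260 of 17012 tested genes had a place). All 9 members are named. A result on 1 other gene is not reported here. Of each other list and comparison, the genes named come from the called genes with the largest rise and fall among those with a mean of at least 50, and for pathway lists any called gene with an absolute log2 difference of at least 1; for likeness, the 3 genes with the highest r per member. A gene named under the rule in 1 comparison may have its values in others given too. The 9 members and the lists were chosen with earlier results of these data known. P-values measure only the spread between these libraries. The exact permutation test of 3 against 3 libraries cannot go below 0.10.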

Additional observations from a re-analysis of the deposited data

Results flagged for a closer look

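For 7 of the 9 genes the change in the shMYC2-labelled libraries against Resistant differed from the change in MYC T58A against Parental by a test of the difference itself (an interaction term in limma, adjusted over all genes). On the log2 scale the first change exceeded the second by 1.48 for RRM2, 0.67 for CTPS1, 0.45 for TK1 and 0.40 for RRM1. The difference had the other sign for DHODH (-1.04), UMPS (-0.67) and CAD (-0.30). The 2 responses use different starting cells, so the introduced change and the cell background cannot be told apart, and 75.0% of all tested genes differed by the same test.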

How the results depend on the processing

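All 9 members kept their direction and side of the threshold in the 4 main comparisons and in the difference of the responses under edgeR, DESeq2, pseudocounts of 0.1 and 10, no filter, a filter at 50 and limma without robust estimation (45 of 45 each). Requiring an absolute log2 difference of at least 0.5 left 1 member called in Resistant, 2 in MYC T58A, 4 and 3 in the shMYC1- and shMYC2-labelled libraries and 4 in the difference of the responses, beside 4741, 6633, 5436, 10182 and 10389 of all genes in that order. Less the median of neighbouring genes, the sign of a called difference in the 4 main comparisons turned for CAD (0.15) and RRM2 (0.054) in Resistant, CTPS1 (0.14) in MYC T58A, CAD (-0.13) in the shMYC1-labelled libraries and UMPS (0.050) in the shMYC2-labelled libraries. Between other pairs of groups it also turned for CAD (-0.074), CTPS1 (0.17) and RRM1 (0.063) in MYC T58A against Resistant and CTPS1 (-0.073) in the shMYC2-labelled libraries against MYC T58A. The scalings and left-out libraries turned signs of differences that were not called. With quantile normalization and with a common total, these were TYMS in the difference of the responses (-0.059 and -0.083), RRM1 in the shMYC1-labelled libraries against Parental (-0.045 and -0.012), TYMS there against MYC T58A (-0.036 and -0.034) and RRM2 between the hairpin-labelled groups (-0.060 and -0.021), and with quantile normalization TK1 between them (-0.0025). Leaving out 1 library at a time, RRM1 in the shMYC1-labelled libraries against Resistant ran from -0.072 to 0.011, and DTYMK in the difference of the responses from -0.16 to 0.00079. The cause was not tested. In the shMYC2-labelled libraries against Resistant, the median of all genes shifted by 0.23 with quantile normalization and by -0.14 with a common total. No paired analysis was possible because the table's columns carry running numbers and not the replicate numbers of the labels. The fewest reads behind a group mean of a member were 1155, for DHODH in the shMYC2-labelled libraries.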

Other observations

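Directly compared, the shMYC2-labelled libraries and MYC T58A differed most for DHODH, which was 2.61-fold lower in the former (log2 difference -1.38), and for RRM2, which was 1.89-fold higher (0.92). TYMS did not pass between them (-0.04, 95% interval -0.14 to 0.05), but was called lower with quantile normalization (-0.20, adjusted p = 0.00042) and with a common library total (-0.22, adjusted p = 0.00025), while the neighbours of TYMS had a median of -0.59 in that comparison. TYMP averaged 63.7 ± 7.99 normalized reads (SD, n = 3) in the shMYC2-labelled libraries and 4.4 ± 2.13 in Resistant.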
